A study of Mus musculus with 16 samples.

Results

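Cell cycle and DNA replication genes of the mouse cecal epithelium were followed over 4 colonization states, as a readout of crypt proliferation. The list held 46 genes, and every probe set annotated to one of them alone on the Mouse 430 2.0 GeneChip was taken. Of the 46 listed genes, 45 had a probe set, out of 18193 genes named on the GeneChip, and Ccnb1 was not analysed here. The 45 genes had 102 probe sets of 45101 in the table, and 14 genes had 1 probe set each.

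The study asked how germ-free mice respond to B. thetaiotaomicron with and without B. longum. Epithelium was laser-captured from the cecum of male adult NMRI mice on a polysaccharide-rich chow, in germ-free mice (GF), mice mono-associated for 10 days with B. thetaiotaomicron (Bt) or with B. longum (Bl), and mice bi-associated for 10 days with both (Bt/Bl). All mice were gnotobiotic, and none carried any other microbe. RNA of 4 mice was pooled in each state, and 2 amplifications of that pool went to 2 GeneChips, so the spread between duplicates was technical, and each test compared pools of mice rather than mice. The GeneChips carry the numbers 9128 and 9129 (GF), 9130 and 9443 (Bt), 9134 and 9135 (Bl), and 9132 and 9133 (Bt/Bl), and each pair of signals is given in that order.

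In the intestinal epithelium, stem and progenitor cells at the crypt base divide, and their daughters leave the cell cycle as they move up and differentiate. A cell that commits to division makes the proteins that license and copy DNA and supply nucleotides, and then those that condense chromosomes, build the spindle and carry out mitosis. Many of these transcripts appear in dividing cells and are low in resting ones, so Mki67, Top2a and Pcna are in common use as proliferation markers. Captured epithelium is a mixture, and fewer cycling cells and less RNA per cycling cell cannot be told apart in these signals.

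Each gene is represented by its probe set of highest mean log2 signal. Signals are linear, with a trimmed mean of 1500 on every GeneChip, and log2 differences were taken after signals under 144.7, the 25th percentile of the table, were raised to that floor. A comparison was tested with limma over the 24865 probe sets whose duplicates both exceeded the table median of 583.1 in at least 1 state, and p-values were adjusted over all of them. Of the members' 102 probe sets 71 were tested, which covered 44 genes, and the representative probe sets of Bub1 and Cdc45 were not among them. Of the 45 representatives 24 exceeded the table median on all 8 GeneChips, and 12 lay under the floor on at least 1.

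Epithelial markers were strong throughout. All 7 epithelial markers exceeded the table median on every GeneChip, with a summed signal of 930935 to 1400863, and all 7 markers of differentiated colonocytes did so as well. Markers of stroma, muscle and vessels, all 7 with a probe set, summed to 24219 to 30983 in GF and Bt but 14203 to 18540 in Bl and Bt/Bl. The 7 goblet cell markers summed to 776850 to 1283119, those of lymphocytes and plasma cells to 4612 to 15347 and those of macrophages to 8536 to 19330. Markers of crypt stem and progenitor cells were dimmer. On each GeneChip 2 to 5 of the 7 genes exceeded the table median and 0 to 3 lay under the floor; Lgr5, the stem cell receptor, did so on 3 GeneChips and Sox9 and Axin2 on 0, and the list summed to 3877 and 5897 in GF, 4904 and 2020 in Bt and 4832 and 5017 in Bl, with 4024 and 4987 in Bt/Bl. The signal ratio of the 3′ to the 5′ probe set of Gapdh, a readout of RNA integrity, was 5.66 and 7.26 in GF and 8.93 to 17.6 in the colonized states, while that of the actin control was 36.9 and 38.8 in GF and 21.4 to 36.3 in the others.

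With the brightest probe set of each gene, cell cycle genes stood highest when both species were present. With both species, 35 of 45 genes had a higher mean log2 signal than in GF, and the median difference was 0.74 on the log2 scale, against 0.00 over all 18193 genes. The duplicates of 26 members lay wholly above those of GF and those of 2 members wholly below, or 57.8% and 4.44% of members, where 17.6% and 16.9% of all genes did so. All 22 members whose mean signal exceeded the members' own median of 1800 were above GF, from Ccnd1 at 0.08 to Ccnb2 at 1.94, whereas of the 5451 genes of the array over that level 47.3% were above GF. That mean includes Bt/Bl, without which Mcm2, Ccnb2, Ccne1 and Cenpa would not exceed 1800. Of the 20 members over 1800 in the mean of the Bt and Bl GeneChips alone, 20 were above GF, and of the 5504 such genes of the array 47.3%. Of the 23 dimmer members 13 were above and 10 below. Of the 45 genes 24 had their highest state mean in Bt/Bl and 21 their lowest in GF, where 23.1% and 27.1% of all genes did. Only Bub1 and Kif20a were wholly below GF in Bt/Bl. The names of 7 representatives end in _x_at, which marks probe sets that may also bind other transcripts, and the 38 others had a median of 0.73 in Bt/Bl against GF. The 14 genes with 1 probe set had a median of 0.30 in Bt/Bl against GF, 0.34 in Bt and 0.39 in Bl, with 9 of the 14 above GF in Bt/Bl.

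**Figure D1:**
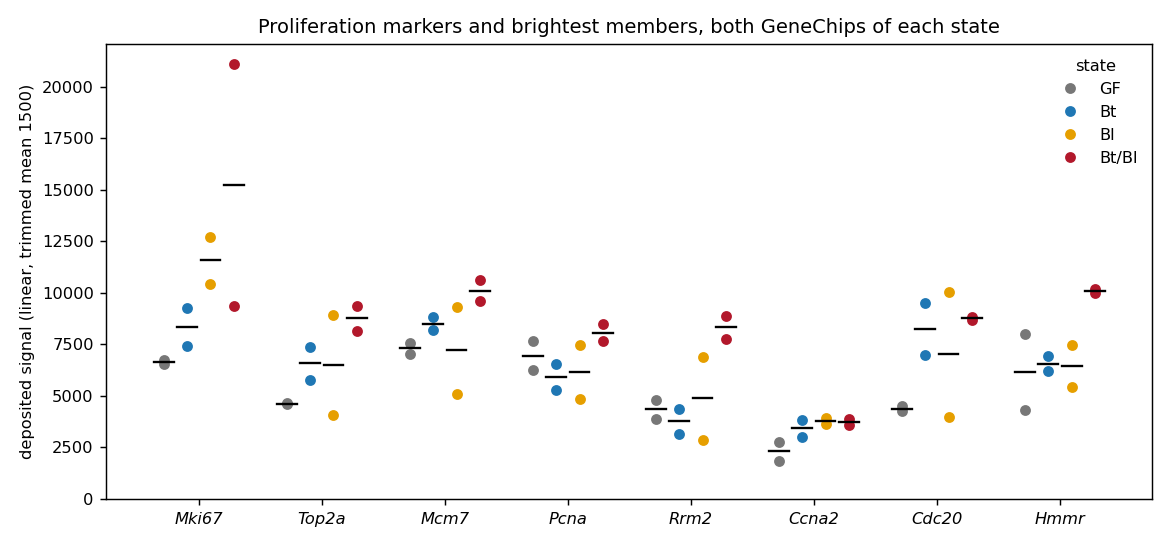
Deposited linear signal of the 3 usual proliferation markers and the brightest member of each role. Each point is 1 GeneChip, each bar the mean of the 2 GeneChips of a state (GF grey, Bt blue, Bl orange, Bt/Bl red); in Bt/Bl both points lie above both GF points for every gene shown but Pcna, whose Bt/Bl point of 7639 falls just under the GF point of 7647.

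No single member passed the adjusted threshold. Adjusted p was under 0.05 for 0 of the 71 tested member probe sets in each of the 6 pairwise comparisons, where 0.169% of all tested probe sets passed for Bt against GF, 0.137% for Bl against GF, 0.197% for Bt/Bl against GF, 0.0483% for Bt/Bl against Bt, 0.0563% for Bt/Bl against Bl and 0.0442% for Bl against Bt. The limma test for any difference among the 4 states also called 0 members, with 0.29% of all probe sets called. The limma contrast of Bt/Bl against the sum of both single-species differences called 0, with 0.113% called. At an unadjusted p under 0.05, limma gave Bt/Bl as the higher state for 11 member probe sets and GF for 1, where 4.01% and 3.38% of all tested probe sets were. The F test had 11 of the 71 member probe sets at an unadjusted p under 0.05, or 15.5% (13.8% of all). The contrast had 9, or 12.7% (12% of all). Leaving out GeneChip 9135 of Bl gave the only member calls of any refit: a Kif23 probe set, 1453748_a_at, which read 1102 and 72.6 in Bl and lay under the floor on the 7 GeneChips other than 9134, and Mcm6.

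Of the usual proliferation markers, Mki67 and Top2a were 1.9- to 2.1-fold higher with both species than in GF, and Pcna, given with the fork genes, was 1.16-fold higher with overlapping duplicates. Mki67, a coat protein of mitotic chromosomes, read 6523 and 6744 in GF, 9261 and 7408 in Bt and 10418 and 12717 in Bl, with 21106 and 9373 in Bt/Bl. Every colonized GeneChip exceeded both GF GeneChips, but the Bt/Bl duplicates lay further apart than any other pair and spanned those of Bl. The Bt/Bl mean was 2.12-fold that of GF (log2 1.08, standard error 0.32, adjusted p = 0.397). Top2a, the topoisomerase that untangles replicated chromosomes, read 4607 and 4644 in GF, 7370.2 and 5782 in Bt and 4082 and 8899 in Bl, and then 9349 and 8156 in Bt/Bl. Bt and Bt/Bl lay above GF without overlap and in that order, and only Bl, whose duplicates straddled GF, did not. The Bt/Bl mean was 1.89-fold that of GF (adjusted p = 0.528, log2 standard error 0.34).

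Genes of replication licensing and of the fork differed least. Over the 10 genes of this role the median log2 difference from GF was 0.25 in Bt and -0.01 in Bl, against 0.45 in Bt/Bl, and 4, 1 and 4 genes lay wholly above GF and 2, 1 and 0 wholly below it (above, 17.8%, 18.8% and 17.6% of all genes; below, 15.6%, 15.2% and 16.9%). Mcm7, a subunit of the MCM helicase that unwinds DNA at the fork, read 7548 and 7054 in GF, 8832 and 8176 in Bt and 9319 and 5105 in Bl, compared with 10629 and 9578 in Bt/Bl. Bt and Bt/Bl lay above GF in steps and Bl spanned all but Bt/Bl, with a Bt/Bl mean 1.38-fold that of GF (adjusted p = 0.815, log2 standard error 0.29). Pcna, the sliding clamp of DNA polymerase, read 6259.9 and 7647 in GF, 5267 and 6559.7 in Bt and 4830.1 and 7481 in Bl, against 8505 and 7639 in Bt/Bl. Its Bt/Bl signals exceeded those of both single-species states but overlapped GF, from which they differed by 0.22 on the log2 scale (standard error 0.29). Mcm6, another helicase subunit, read 2694 and 3416 in GF, 2600.2 and 2165 in Bt and 1115 and 2052 in Bl, with 4519 and 4956 in Bt/Bl. On this representative all 4 states separated, in the order Bl, Bt, GF and Bt/Bl. Another tested Mcm6 probe set, 1416251_at, was above GF in Bt (944 and 764 against 643 and 250) and also highest in Bt/Bl (1099 and 1073). For the representative, the 3.13-fold difference of Bt/Bl from Bl had the smallest adjusted p of any member in that comparison (log2 1.65, standard error 0.42, adjusted p = 0.171). Without GeneChip 9135 it passed, at log2 2.09 (adjusted p = 0.0322), with the lone Bl GeneChip assumed to vary like the other states.

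The dimmer replication genes showed larger and less steady differences. Gins1, a subunit of the complex that joins the helicase, read 894 and 143 in GF, 1179.9 and 1310 in Bt and 315 and 651 in Bl, and then 1075 and 989 in Bt/Bl. Cdc45, which completes the active helicase, read 256 and 221 in GF, 1349 and 523 in Bt and 719 and 151 in Bl, compared with 867 and 443 in Bt/Bl. Both lay above GF in Bt and in Bt/Bl without overlap and overlapped GF in Bl. Cdc6, which loads the helicase at origins, read 886 and 669.5 in GF, 934 and 958 in Bt and 907 and 1203 in Bl, against 773 and 607 in Bt/Bl. Mcm3 read 906 and 739 in GF, 731 and 41.4 in Bt and 1022 and 668 in Bl, with 1631 and 192 in Bt/Bl. Cdc6 lay above GF in each single-species state and overlapped it in Bt/Bl, whereas the Mcm3 duplicates of Bt and of Bt/Bl lay further apart than any 2 state means. Mcm2, Mcm4 and Mcm5 overlapped GF in all 3 colonized states, with log2 differences between -0.75 and 0.73.

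Nucleotide supply was divided. Rrm2, the small subunit of ribonucleotide reductase, read 3894 and 4819 in GF, 3161 and 4357 in Bt and 2873 and 6893 in Bl, and then 8863 and 7776 in Bt/Bl. On this representative only Bt/Bl stood apart, above all other GeneChips, by 1.92-fold over GF (adjusted p = 0.572), 2.24-fold over Bt (adjusted p = 0.296) and 1.87-fold over Bl (adjusted p = 0.364). The other tested Rrm2 probe set, 1448226_at, had the opposite sign in each of these comparisons. It read 1194 and 55.2 in Bt/Bl against 658 and 858 in GF. The large subunit of the enzyme, Rrm1, read 638 and 1872 in GF, 1141 and 976 in Bt and 504 and 2708 in Bl, compared with 1946 and 1981 in Bt/Bl, where it was again above GF and Bt. Both other tested Rrm1 probe sets had lower means in Bt/Bl than in GF and Bt: 1440073_at read 36.5 and 75.1 in Bt/Bl against 768 and 1237 in Bt, and 1448127_at 795 and 74.8 against 927 and 912. Tk1, the thymidine kinase of the salvage pathway, read 45.2 and 92.5 in GF, 1622 and 1049 in Bt and 1353 and 733 in Bl, against 474 and 177 in Bt/Bl. GF lay under the floor on both GeneChips, so that Bt was at least 9.01-fold higher (adjusted p = 0.268, log2 standard error 0.93) and Bl at least 6.88-fold higher (adjusted p = 0.253), the largest differences of any representative in those comparisons, while Bt/Bl lay between GF and both. Tyms, thymidylate synthase, read 923 and 400.1 in GF, 1304 and 909 in Bt and 472 and 74.1 in Bl, with 561 and 437 in Bt/Bl. Its Bt duplicates overlapped GF and exceeded Bl and Bt/Bl, by 4.17-fold over Bl (adjusted p = 0.427).

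Cyclins and the regulators of Cdk1 had medians above GF in every colonized state. Over the 9 genes measured, the median log2 difference from GF was 0.60 in Bt and 0.34 in Bl, with 0.72 in Bt/Bl, and 7, 5 and 6 genes lay wholly above GF and 1, 2 and 0 wholly below it, beside the same shares of all genes. Ccnb2, a mitotic cyclin, read 714 and 937 in GF, 2211 and 1785 in Bt and 1068 and 2229 in Bl, and then 3559.9 and 2776 in Bt/Bl. All colonized GeneChips exceeded GF and Bt/Bl exceeded all others, with 3.84-fold over GF (log2 1.94, standard error 0.56, adjusted p = 0.364). Ccna2, the cyclin of S and G2 phase, read 2783 and 1836 in GF, 3014 and 3827 in Bt and 3909.8 and 3619 in Bl, compared with 3889.7 and 3589 in Bt/Bl, and Foxm1, the transcription factor of G2 and M phase genes, read 1082 and 656 in GF, 2522 and 1963 in Bt and 2489.5 and 2174 in Bl, against 1834 and 1744 in Bt/Bl. Both exceeded GF on all 6 colonized GeneChips, Ccna2 by 1.5- to 1.66-fold and Foxm1 by 2.12- to 2.76-fold. Another Foxm1 probe set, 1417748_x_at, read 1167 and 634 in GF, 806 and 1733 in Bt and 1553 and 1052 in Bl, with 43.9 and 126 in Bt/Bl, so that Foxm1 in Bt/Bl had opposite directions on its 2 tested probe sets. Cdk1 itself also exceeded GF on all 6, by 1.26- to 1.29-fold.

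The remaining regulators were less even. Cdc25c, the phosphatase that activates Cdk1, read 61.9 and 614 in GF, 918 and 699.7 in Bt and 2276 and 987 in Bl, and then 1122 and 1689 in Bt/Bl, and lay above GF in all 3 states. Ccne1, a cyclin of S phase entry, read 2662 and 856 in GF, 1558 and 2338 in Bt and 1685 and 998 in Bl, compared with 3226 and 3181 in Bt/Bl. The related cyclin Ccne2 read 622 and 606 in GF, 898 and 1058 in Bt and 114 and 311 in Bl, against 341 and 614 in Bt/Bl. Ccne1 stood apart in Bt/Bl only, above every other GeneChip, whereas Ccne2 was wholly above GF in Bt and wholly below it in Bl, with 4.6-fold between those states (adjusted p = 0.341). A dimmer Ccne1 probe set, 1416492_at, also stood highest in Bt/Bl, with 1556 and 1925 in Bt/Bl against 287 and 169.9 in GF. Cdkn3, a phosphatase of Cdk1, exceeded GF in Bt only, and its Bl duplicates read 2286 and 88.5.

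Ccnd1, the cyclin that links growth signals to the cell cycle, depended on the probe set. Its representative read 3322 and 3411 in GF, 2833 and 2642 in Bt and 2558 and 2639.8 in Bl, with 2843 and 4480 in Bt/Bl, and Bt and Bl were wholly below GF. Another of its probe sets, 1417419_at, read 661 and 385 in GF, 1883 and 2813 in Bt and 2503 and 1866 in Bl, and then 2358 and 1909.6 in Bt/Bl. It was 4.56-fold higher in Bt (adjusted p = 0.213), 4.28-fold higher in Bl (adjusted p = 0.185) and 4.21-fold higher in Bt/Bl (adjusted p = 0.342), the smallest adjusted p of any member probe set against GF in each case. The third, 1417420_at, read 752 and 1174 in GF, 1549 and 1529 in Bt and 1599 and 1055 in Bl, compared with 2069 and 2219 in Bt/Bl, and was above GF in Bt and Bt/Bl. So the direction for Ccnd1 differed among its probe sets and was uncertain.

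Mitotic kinases, checkpoint proteins and anaphase genes had the largest median difference in Bt/Bl next to Mki67 and Top2a, 1.0 on the log2 scale over 9 genes, with 0.71 in Bt and 0.53 in Bl. Cdc20, which activates the anaphase-promoting complex, read 4506 and 4254 in GF, 9496 and 6984 in Bt and 10036 and 3989.8 in Bl, against 8830.4 and 8684 in Bt/Bl. Bt and Bt/Bl were about as high and clear of GF, 1.86-fold (adjusted p = 0.419) and 2.00-fold (adjusted p = 0.515), and the Bl duplicates spanned the whole range. Aurka, the centrosome kinase, read 80.5 and 540.3 in GF, 2141 and 425 in Bt and 1482 and 1905 in Bl, with 1048 and 1364 in Bt/Bl. Its relative Aurkb, the kinase of the chromosomal passenger complex, read 329.8 and 429 in GF, 605 and 628 in Bt and 541 and 809 in Bl, and then 843 and 858 in Bt/Bl. On these representatives Aurkb was above GF in all 3 states and highest in Bt/Bl, and Aurka was above GF in Bl and Bt/Bl. The other tested Aurkb probe set, 1424128_x_at, was highest in Bt, at 1142 and 1347 against 127 and 32.2 in GF. It overlapped GF in Bl (953 and 56.5) and in Bt/Bl (111 and 1017).

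Birc5, the survivin subunit of the same passenger complex, differed widely between states. It read 837 and 541 in GF, 79.9 and 396 in Bt and 1326 and 1265 in Bl, compared with 1939.6 and 1852 in Bt/Bl, so all 4 states separated in the order Bt, GF, Bl and Bt/Bl. Bt/Bl was 7.92-fold above Bt (log2 2.98, standard error 0.89, adjusted p = 0.273) and Bl was 5.41-fold above Bt (adjusted p = 0.266). Ube2c, the ubiquitin-conjugating enzyme of the anaphase-promoting complex, read 57.3 and 1134 in GF, 711 and 701 in Bt and 1625 and 1131 in Bl, against 1197 and 1779 in Bt/Bl. Only Bt/Bl cleared GF, whose duplicates were the furthest apart for this gene. Bub1, a checkpoint kinase, read 721 and 547 in GF, 461 and 46.4 in Bt and 2169 and 258 in Bl, with 237 and 375 in Bt/Bl, and was the 1 gene of the role wholly below GF in Bt/Bl. Another Bub1 probe set, 1424046_at, read 104 and 30.9 in GF, 486 and 194 in Bt and 115 and 862 in Bl, and then 1039 and 913 in Bt/Bl, at least 6.73-fold higher in Bt/Bl than in GF, which lay under the floor (adjusted p = 0.471). These 2 Bub1 probe sets pointed opposite ways. Of the other 3 genes of the role, the checkpoint genes Bub1b and Mad2l1 cleared GF in Bt and in Bt/Bl respectively, and Plk1 overlapped GF in every state.

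Spindle, kinetochore and cytokinesis genes had a median log2 difference from GF of 0.78 in Bt/Bl, 0.44 in Bt and 0.14 in Bl over 11 genes. Hmmr, a spindle assembly factor, read 8005 and 4313 in GF, 6922 and 6199.5 in Bt and 5415 and 7457 in Bl, compared with 10178 and 9995 in Bt/Bl. On this representative Bt/Bl stood above every other GeneChip, and the rest overlapped. Its difference was 1.72-fold from GF (adjusted p = 0.567), 1.54-fold from Bt and 1.59-fold from Bl. Other tested Hmmr probe sets were dimmer and divided. On 1429871_at Bt/Bl (149 and 503) lay below Bt (740 and 766) and Bl (601 and 713). Against Bl, Bt/Bl was lower on 1450157_a_at (32.5 and 632.5 against 883 and 1147) and higher on 1450156_a_at (1087 and 810 against 166 and 55.5). Cenpe, the kinetochore motor, read 1068 and 635 in GF, 587 and 602 in Bt and 485 and 938 in Bl, against 2266 and 1419 in Bt/Bl. Cenpf, a kinetochore protein, read 2342 and 1460.3 in GF, 2054 and 3086 in Bt and 1829.7 and 857 in Bl, with 3057 and 3101 in Bt/Bl. The Cenpe representative in Bt/Bl was again above all others, and Cenpf cleared GF and Bl but not Bt. The other tested Cenpe probe set, 1439040_at, went the opposite way and was lowest in Bt/Bl, at 103 and 24.8 against 257 and 437 in GF. The exception of the role was Kif20a, a motor of cytokinesis, which read 309 and 319.9 in GF, 695 and 662 in Bt and 914 and 647 in Bl, and then 171 and 179 in Bt/Bl. It was above GF with either species and below GF with both, 3.88-fold under Bt (adjusted p = 0.416) and 4.4-fold under Bl (adjusted p = 0.317), with all 4 GF and Bt/Bl signals under the table median. Of the other 7 genes, Cenpa and Tpx2 cleared GF in Bt/Bl, Prc1 and Tpx2 in Bt, Ect2 was wholly below GF in Bt, and Kif11, Kif23 and Nusap1 overlapped GF throughout.

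**Figure D2:**
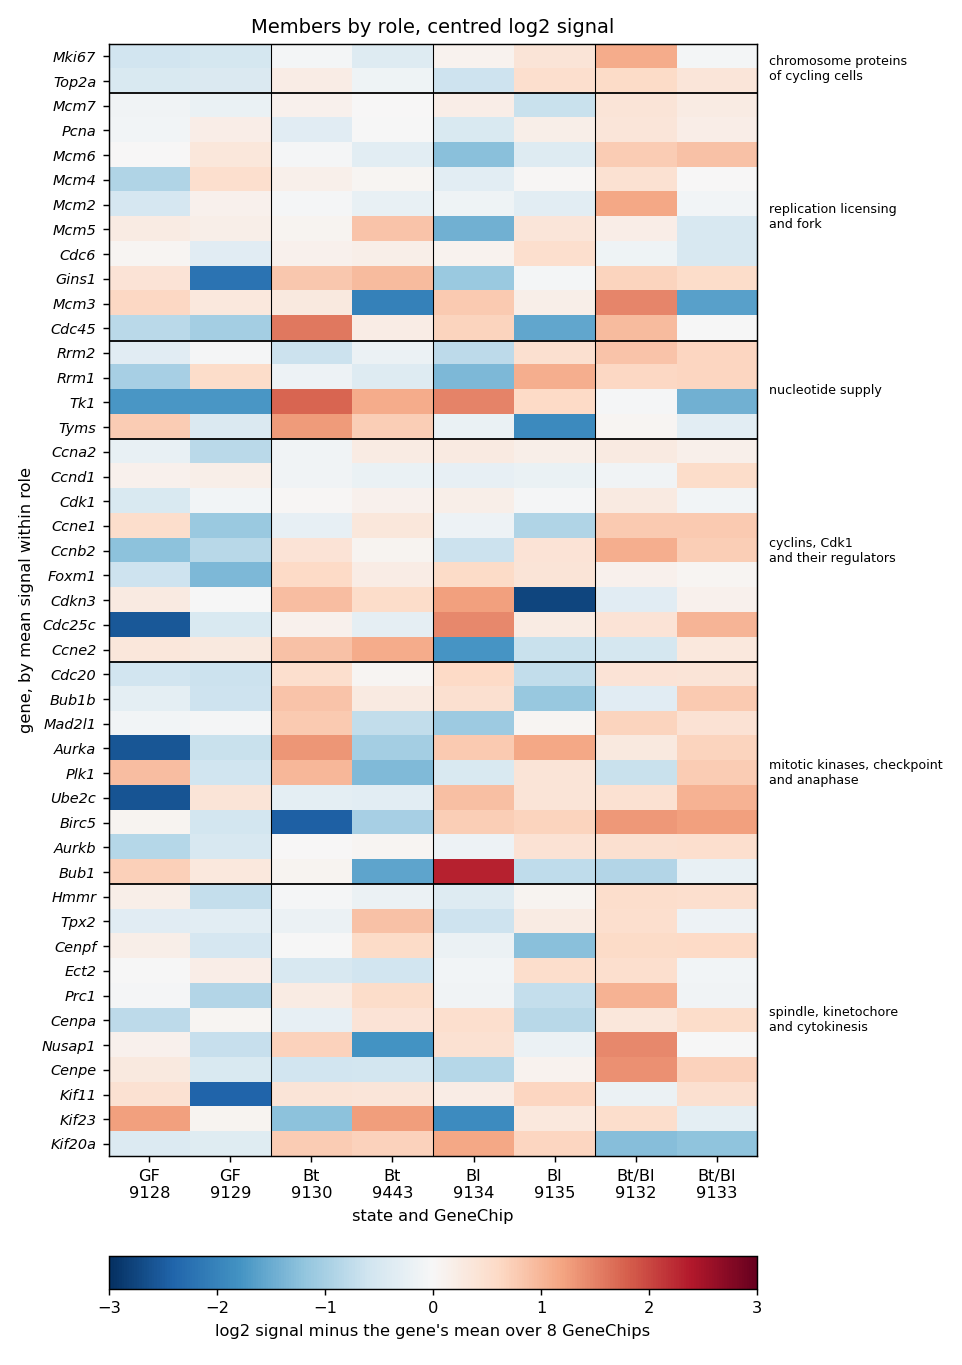
Log2 signal of the 45 genes on each of the 8 GeneChips, minus the gene's own mean, grouped by role and ordered by mean signal within a role (blue lower, red higher, colour scale from -3 to 3). The GF columns are mostly blue and the Bt/Bl columns mostly red, the brighter genes of a role vary less than the dimmer ones, and the 2 Bl columns often differ in colour.

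The promoters of these genes are shown because the members stood higher together in Bt/Bl and genes of this kind are known to be controlled through a few shared elements. RefSeq promoters, the 250 bases before to 50 after a start on GRCm38.p6, were matched by symbol for 36 of the 46 genes, 39 promoters in all. They were searched on both strands for the CCAAT box (CCAAT), bound by NF-Y, for the cell cycle genes homology region (TTTGAA) of G2 and M phase genes, and for the E2F core of S phase genes, written as TTCCCGC, alternatively TTGGCGC or TTCGCGC, and matches of different motifs could overlap. A CCAAT box was found in 82.1% of the 39 promoters and in 37.4% of all 32851, TTTGAA in 53.8% and 17.9%, and an E2F core in 33.3% and 8.07%. The promoters of the brightest genes of 4 roles follow, with matches in capitals; all are on the minus strand, at chr7:135716330-135716629 (Mki67), chr5:138171834-138172133 (Mcm7, the first of its 2 starts), chr4:118437294-118437593 (Cdc20) and chr11:40733388-40733687 (Hmmr). These matches are a description of sequence and were not set against the signals.
Mki67: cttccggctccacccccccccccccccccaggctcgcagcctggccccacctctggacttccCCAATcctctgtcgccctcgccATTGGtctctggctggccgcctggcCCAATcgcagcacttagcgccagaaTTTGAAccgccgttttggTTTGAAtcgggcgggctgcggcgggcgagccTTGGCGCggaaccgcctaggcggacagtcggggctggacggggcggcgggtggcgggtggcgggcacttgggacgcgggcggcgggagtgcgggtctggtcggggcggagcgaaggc
Mcm7: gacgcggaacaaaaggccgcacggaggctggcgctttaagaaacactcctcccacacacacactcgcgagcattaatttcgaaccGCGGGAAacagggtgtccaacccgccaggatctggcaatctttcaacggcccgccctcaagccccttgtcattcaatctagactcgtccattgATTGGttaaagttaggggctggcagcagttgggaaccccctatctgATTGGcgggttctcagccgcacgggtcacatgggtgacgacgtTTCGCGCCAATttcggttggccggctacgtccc
Cdc20: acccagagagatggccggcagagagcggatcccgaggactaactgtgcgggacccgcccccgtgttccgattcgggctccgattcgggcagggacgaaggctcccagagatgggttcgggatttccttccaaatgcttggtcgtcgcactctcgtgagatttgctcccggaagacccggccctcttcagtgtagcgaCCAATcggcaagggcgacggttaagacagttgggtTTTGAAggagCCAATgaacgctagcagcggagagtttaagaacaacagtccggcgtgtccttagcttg
Hmmr: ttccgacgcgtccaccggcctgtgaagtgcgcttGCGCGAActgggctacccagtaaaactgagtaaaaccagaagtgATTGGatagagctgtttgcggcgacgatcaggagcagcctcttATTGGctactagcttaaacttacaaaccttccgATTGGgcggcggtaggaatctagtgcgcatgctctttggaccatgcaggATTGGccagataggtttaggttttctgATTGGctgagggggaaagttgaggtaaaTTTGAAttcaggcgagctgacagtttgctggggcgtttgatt
Mki67 held matches to all 3 motifs, as did Hmmr, Mcm7 held CCAAT and E2F matches and no TTTGAA, and Cdc20 held CCAAT and TTTGAA matches and no E2F core.

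With the brightest probe set of each gene, either species alone gave a smaller median difference from GF than both together. That order did not hold with the mean of all probe sets of a gene, tested or not, or in the 14 genes with 1 probe set. In Bt, 32 of 45 genes were above GF, the median was 0.36 on the log2 scale against 0.01 over all genes, and 20 genes were wholly above and 7 wholly below, where 17.8% and 15.6% of all genes were. At an unadjusted p under 0.05, limma gave 7 of 71 member probe sets higher and 0 lower (5.12% and 4.36% of all). In Bl, 30 genes were above GF, with a median of 0.14 against 0.03, and 12 genes were wholly above and 3 wholly below (18.8% and 15.2% of all genes), with 8 probe sets higher and 1 lower by the unadjusted limma p (6.5% and 5.22% of all). The Bl duplicates agreed poorly for these genes, with a median absolute difference of 0.86 on the log2 scale against 0.35 to 0.40 in the other states, and they also agreed least over all genes (0.75 against 0.47 to 0.65), so the position of Bl is the least certain. Without GeneChip 9130 the Bt median was 0.58, and without GeneChip 9135 the Bl median was 0.32. Under scaling to the median, which moved the median of all genes by -0.14 in Bt and -0.25 in Bl against GF, the members' medians became 0.15 and -0.21, or 0.29 and 0.04 above that of all genes, while the Bt/Bl median became 0.69, or 0.71 above it. Genes wholly above and below GF then numbered 13 and 8 in Bt and 7 and 8 in Bl, where 12.1% and 20.8% of all genes were in Bt and 11.8% and 24.4% in Bl.

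**Figure D3:**
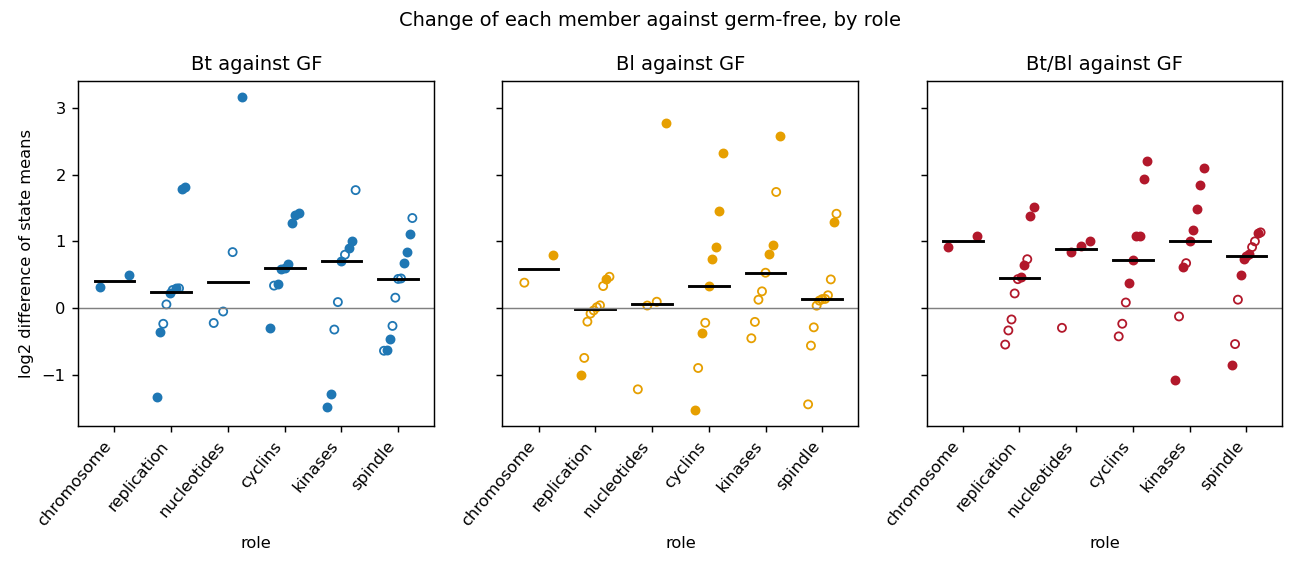
Log2 difference of the state mean from GF for each of the 45 genes, 1 panel per colonized state, by role on the x axis. Filled points are genes whose duplicates do not overlap those of GF, open points overlap, and black bars are role medians; all 6 bars are above 0 in Bt/Bl, from 0.45 to 1.0, while the replication bar is at -0.01 in Bl.

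On the representatives Bt/Bl also exceeded each single-species state, but the other probe sets of the members were lower in the median. Against Bt the members' median was 0.29 on the log2 scale (-0.01 over all genes), with 32 genes above, 17 wholly above and 8 wholly below (17.6% and 18.5% of all genes), and with 5 probe sets higher and 5 lower by the unadjusted limma p (4.95% and 5.53% of all). Against Bl the median was 0.53 (-0.02 over all genes), with 34 genes above, 17 wholly above and 5 wholly below (16.2% and 18.7% of all genes), and with 8 probe sets higher and 5 lower by the unadjusted limma p (5.4% and 6.37% of all). When all probe sets of a gene were averaged, those medians shrank to 0.03 and 0.07 and the genes wholly above to 10 and 9, where 15.7% and 13.5% of all genes were, with all-gene medians of -0.03 and -0.08. The medians against GF were then 0.39 in Bt/Bl, 0.47 in Bt and 0.36 in Bl. The 57 other probe sets, of which 28 were tested, were on the whole dim; their own medians were 0.04, 0.47 and 0.37 against GF in the same order. Only 3 of them, of Ccna2, Mcm7 and Tpx2, exceeded a mean signal of 1800, and all 3 were above GF in Bt/Bl, by 0.17 to 0.58. In Bt/Bl against Bt 1 of these 3 was above 0, in a range of -0.80 to 0.04, and against Bl all 3 were, by 0.12 to 1.06. The 57 other probe sets had a median of -0.21 for Bt/Bl against Bt, with 21 above 0 and 33 below. Against Bl their median was -0.25, with 23 above 0 and 32 below. Of 19 genes with more than 1 tested probe set, all probe sets had 1 sign in 10 genes for Bt/Bl against GF and in 7 for Bt/Bl against Bt. The 9 genes with both signs against GF were Cenpe, Foxm1, Kif11, Mcm3, Mcm5, Mcm7, Prc1, Rrm1 and Rrm2.

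**Figure D4:**
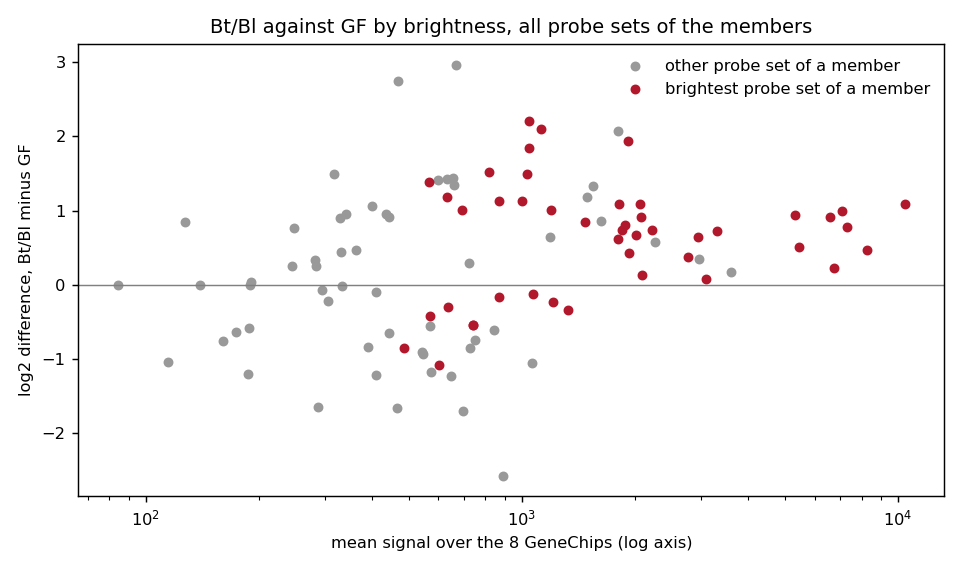
Log2 difference of Bt/Bl from GF against mean signal over the 8 GeneChips (log axis) for all 102 probe sets of the 45 genes, with representatives in red and other probe sets in grey. Above a mean signal of 1800, which includes the Bt/Bl GeneChips, every red and grey point lies above 0, and below it the points scatter from -2.57 (a Foxm1 probe set) to 2.97 (a Ccne1 probe set).

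Between Bl and Bt the members had no common direction. The median of Bl minus Bt was -0.07 on the log2 scale (0.00 over all genes), with 20 genes above 0 and 25 below. In Bl 5 genes were wholly higher than in Bt and 8 wholly lower, where 15.7% and 15.1% of all genes were, and 2 probe sets were higher and 2 lower by the unadjusted limma p (6.4% and 5.49% of all). The largest gaps were in Birc5, Tyms and Ccne2, given above. A dim Hmmr probe set, 1450157_a_at, read 91.7 and 260.2 in Bt and 883 and 1147 in Bl and had the smallest adjusted p (log2 2.37, adjusted p = 0.23), which its representative did not share at -0.04.

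**Figure D5:**
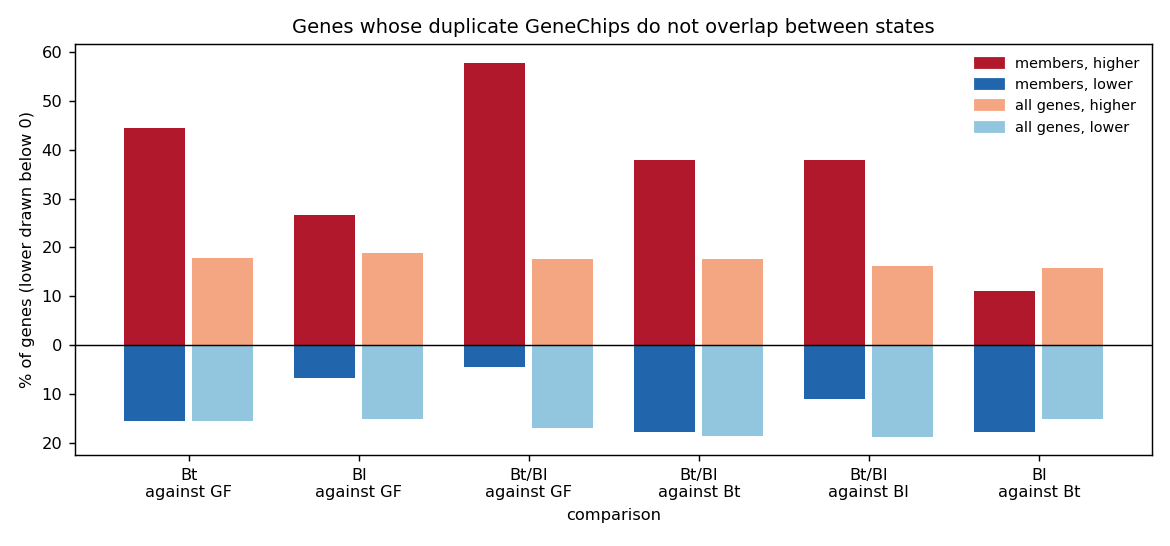
Share of genes whose 2 GeneChips in the first state lie wholly above (upward bars) or wholly below (downward bars) those of the second, for the 45 members (dark) and all 18193 genes (light) in the 6 comparisons. Members exceed all genes upward in every comparison but Bl against Bt, most for Bt/Bl against GF, at 57.8% against 17.6%.

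Further genes of the same pathways were mostly above GF with both species, whereas those of replication were mostly below it in Bl. Of 27 other genes of replication and S phase, 22 were above GF in Bt/Bl with a median of 0.47, 16 in Bt (median 0.08) and 9 in Bl (median -0.33), where 49.1%, 50.7% and 51.6% of all genes were. In Bl 5 of the 27 were wholly above GF and 2 wholly below, where 18.8% and 15.2% of all genes were. Their median log2 signal, minus each gene's own mean, was -0.39 on Bl GeneChip 9134 and 0.13 on 9135, against 0.09 and -0.07 in GF. Cdca7, a gene induced by Myc and E2F factors, came nearest to passing, at least 8.83-fold higher in Bt/Bl than in GF (log2 3.14, standard error 0.61, adjusted p = 0.0543). Its GF signals of 125 and 115 lay under the floor. It exceeded the table median only in Bt/Bl, at 1313.5 and 1244, and so was tested through that state alone. Of 34 other genes of G2 and M phase, 27 were above GF in Bt/Bl with a median of 0.54, 23 in Bt (median 0.26) and 19 in Bl (median 0.08). Pttg1, securin, was 2.12-fold higher in Bt/Bl than in GF (adjusted p = 0.198) and Incenp, of the chromosomal passenger complex, 1.79-fold higher (adjusted p = 0.36). By limma 0 of these genes passed in a pairwise comparison; at an unadjusted p under 0.05, Bt/Bl was above GF in 4 and below it in 1 of 38 replication probe sets, and above it in 10 and below it in 0 of 53 probe sets of G2 and M phase, against 4.01% and 3.38% of all tested probe sets.

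Genes that hold the cell cycle back did not follow the members. Of 15 inhibitors and quiescence genes, 7 were above GF in Bt/Bl (median -0.05), 5 in Bt (median -0.23) and 8 in Bl (median 0.03). The zinc finger protein Klf4, high in differentiated epithelium, was 1.38-fold lower in Bt/Bl than in GF (adjusted p = 0.765) and 1.78-fold lower than in Bl (adjusted p = 0.224) on its dimmer probe set; signals of the brighter overlapped, with 74782 and 96749 in GF, 83705 and 80471 in Bt/Bl, and 53263 and 97275 in Bl. Of 13 growth regulators upstream of the cell cycle, 4 were above GF in Bt/Bl (median -0.19), 7 in Bt (median 0.09) and 8 in Bl (median 0.25), and Ccnd2, a second D-type cyclin, was 1.90-fold lower in Bt than in GF (adjusted p = 0.212). By limma 0 genes of these lists passed in a pairwise comparison, and 0 of their 21 and 26 probe sets had an unadjusted p under 0.05 in Bt/Bl against GF.

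Values that moved with the colonization states are given here beside the members. The Gapdh 3′ to 5′ ratio was lowest in GF, where the members were lowest, whereas the actin ratio was highest there. Markers of stroma, muscle and vessels summed lowest in Bl and Bt/Bl. Markers of crypt stem and progenitor cells did not separate Bt/Bl from GF. Their part in the members' differences was not tested. Of the 7 markers of differentiated colonocytes, 3 were above GF in Bt/Bl (median -0.02), 4 in Bt (median 0.08) and 6 in Bl (median 0.41). Aqp8, a water channel of colonocytes, rose over GF in Bt/Bl (3.52-fold, adjusted p = 0.00207), Bt (3.02-fold, adjusted p = 0.0057) and Bl (3.62-fold, adjusted p = 0.00151). Of the 7 goblet cell markers, 2 were above GF in Bt/Bl (median -0.17), 5 in Bt (median 0.31) and 4 in Bl (median 0.30). Muc2, the secreted mucin, rose in Bt (2.93-fold, adjusted p = 0.00787) and Clca1 in Bl (2.35-fold, adjusted p = 0.0194). Of the 7 markers of lymphocytes and plasma cells, 3 were above GF in Bt/Bl (median -0.52), 2 in Bt (median -0.52) and 2 in Bl (median -0.46). Jchain, of plasma cells, fell 8.0-fold in Bt (adjusted p = 0.00345). On its representative probe set Cd8a was wholly above GF in Bt, at 2509 and 1614 against 1566.5 and 251. Another tested Cd8a probe set was wholly below GF in Bt, at 133.3 and 260.7 against 990 and 595.7. So the direction for Cd8a differed between these probe sets.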

How the data were processed

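Probe set intensities of the Mouse 430 2.0 GeneChip were used as deposited, in linear units: the authors made them with MAS5 on 8 GeneChips, with a trimmed mean (2% at each end) of 1500 on each, and without detection calls. The study's own analysis used dChip. Medians per GeneChip ran from 474.9 to 759. A second array of glycan genes was not used here. Probe sets were named from the platform annotation, with symbols updated through gene identifiers: 34958 had 1 symbol, 932 several and 9211 none, and 64 control probe sets were not tested. Precision is limited by 2 GeneChips per state.

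Values under 144.7 were raised to that floor, log2 was taken, and limma 3.58.1 (R 4.3.3) was fitted to all 8 GeneChips with an intensity trend (4 residual and 11.1 prior degrees of freedom), with Benjamini-Hochberg adjustment over 24865 probe sets and a threshold of 0.05. The fit was tested on simulated data. The members and all other lists were chosen with earlier results of these data known. Values on each GeneChip were given for members with the 3 largest rises and falls without overlap in a comparison, the brightest of each role, and Mki67, Pcna and Top2a; other lists were named by smallest p. Further genes and probe sets were singled out after their values were seen. Alternatives were median scaling, quantile normalization, other floors, no filter, no trend, only the GeneChips compared, the mean of all probe sets of a gene, and leaving out each GeneChip; counts without overlap under them, and splits of the members by brightness or probe set, were chosen after seeing the data.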

Additional observations from a re-analysis of the deposited data

Results flagged for a closer look

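In 8 genes the duplicates moved one way when a species was added to germ-free mice and the opposite way when it was added to mice that already held the other species, or 17.8% of 45 members, where 9.84% of all 18193 genes did so. Neither direction overlapped between states, but the limma contrast of Bt/Bl against the sum of both single-species differences, which tests this on the log2 scale, had an adjusted p over the threshold in each. Tk1 was higher with either species and lower again with both (contrast -4.95, adjusted p = 0.197), as were Kif20a (-3.25, adjusted p = 0.277), Foxm1 (-1.78, adjusted p = 0.364) and Cdc6 (-0.91, adjusted p = 0.78). The representative probe set of the replication gene Mcm6 went the other way, lower with either species and highest with both (2.00, adjusted p = 0.215). That of Ccnd1 did so as well (0.76, adjusted p = 0.59), though its Bt/Bl signals overlapped GF. For Birc5 (2.04, adjusted p = 0.534) and the representative probe set of Cenpe (1.88, adjusted p = 0.544) this held for adding B. thetaiotaomicron, not for adding B. longum. The other tested Cenpe probe set, 1439040_at, had a contrast of the opposite sign (-2.94, adjusted p = 0.306). A second tested Ccnd1 probe set, 1417419_at, likewise had the opposite sign to its representative (-2.22, adjusted p = 0.301). Another tested Mcm6 probe set, 1416251_at, was above GF in Bt, as given above.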

How the results depend on the processing

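Of 885 refitted values of named genes, 866 kept their direction and side of the threshold. With scaling to the median, Hmmr became -0.051 in Bt and -0.23 in Bl against GF and Rrm2 -0.31 in Bl. With quantile normalization, Mcm7 in Bl became 0.11, and with the floor at the table median Kif20a in Bt/Bl against GF became 0. When GeneChips were left out in turn, the log2 difference from GF in Bl ranged from -0.59 to 0.67 for Rrm2, -0.33 to 0.56 for Hmmr, -0.13 to 1.20 for Cdc20, -0.52 to 0.11 for Pcna, -0.52 to 0.35 for Mcm7 and -0.18 to 0.94 for Top2a. In Bt it ranged from -0.45 to 0.0082 for Rrm2 and -0.29 to 0.60 for Hmmr. The cause was not tested.

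The median of tested members against GF became 0.14 in Bt and -0.21 in Bl with median scaling. It became 0.32 in Bl with the mean of a gene's tested probe sets, which leaves out the untested ones averaged above. Against Bl the Bt/Bl median became 0.80 with median scaling and 0.34 with the mean of tested probe sets. Against Bt it became 0.15 with the mean of tested probe sets. Over these settings the median against GF was 0.576 or more in Bt/Bl and 0.4417 or less in Bt. Leaving out GeneChips gave 0.32 to 0.58 for Bt, 0.10 to 0.32 for Bl and 0.52 to 0.82 for Bt/Bl against GF, and 0.37 to 0.63 for Bt/Bl against Bl. Members called then ranged from 0 to 1 for Bl against GF, Bl against Bt, any difference and the contrast, and from 0 to 2 for Bt/Bl against Bl, where GeneChip 9135 of Bl alone gave calls.

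With median scaling, 13 members without overlap were higher in Bt against GF (12.1% of all genes). In Bl 7 were higher and 8 lower than in GF (11.8% and 24.4%), and in Bt/Bl 2 were lower than in Bl (12.1%). Quantile normalization gave 7 lower in Bl against GF (17.2% of all genes). It gave 5 lower in Bt/Bl against Bt and 3 lower against Bl (17.5% and 16.4%). With the floor at the median 0 were lower in Bt/Bl against GF (12.9% of all genes). With the mean of all probe sets, tested or not, 3 were lower in Bt against GF (14.4% of all genes). In that setting 10 and 9 were higher in Bt/Bl against Bt and Bl (15.7% and 13.5%). Over all probe sets, calls against GF ranged from 0 to 45 in Bt (main 42), 0 to 31 in Bl (34) and 0 to 52 in Bt/Bl (49) by setting, and from 5 to 376, 6 to 714 and 6 to 25 without 1 GeneChip. No paired analysis was possible because the states share no replicate numbers.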
